A study of Homo sapiens with 16 samples.

Results

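The 35 genes described here encode proteins of the lysosome and of autophagy. They were taken by name, with earlier results of these data known, so shares set beside those of all genes are not an independent test. The set holds 9 lysosomal proteases, 7 lysosomal membrane proteins, 2 other proteins of the lysosome lumen, 3 transcription factors of lysosome genes, and 14 autophagy factors. Each gene was read from a probe set annotated with that gene alone, and 35 of 35 were found among 18417 genes with such a probe set. All 35 lay above 6.27, the median of all log2 values and here the brightness limit, in at least 2 arrays, as did 12639 genes in all, which were tested.

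RNA of 4 human cell lines (IM-9, U266, KMS-11 and RPMI8226) was hybridised to Affymetrix expression arrays, with 2 arrays for each line and state, 16 arrays in 8 groups. Sublines called hypoxia-resistant (HR), written IM-9-HR, U266-HR, KMS-11-HR and RPMI8226-HR, were kept at 1% oxygen for 24 h. Their parental counterparts were kept at 20% oxygen for 24 h. Since no HR group was kept at 20% oxygen and no parental group at 1%, the resistant state and the oxygen supply cannot be told apart in any comparison. The labels call every line multiple myeloma, the plasma cell cancer, although IM-9 is often described as a B lymphoblastoid line. Each comparison within a line is of 1 HR subline with 1 parental line. Whether the pair of arrays in each group stems from independent cultures is not stated, so p-values within a line measure the spread between arrays, which may be technical.

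The lysosome is an acidic compartment in which proteases, glycosidases and other hydrolases break down material from endocytosis and autophagy. In autophagy, a kinase and a lipid kinase complex start a membrane, the ATG12 to ATG5 conjugate and its partner ATG16L1 attach ATG8 family proteins to it, receptors tether cargo to these, and the closed vesicle fuses with a lysosome. TFEB, TFE3 and MITF bind a CACGTG-type element in many of these genes, and their activity is set largely by phosphorylation and entry into the nucleus, which arrays do not measure. Plasma cells secrete large amounts of immunoglobulin and are known to depend on autophagy for survival.

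Array medians lay between 6.22 and 6.34 on the log2 scale. Pearson correlations over all probe sets were 0.993 to 0.996 within groups, 0.984 to 0.995 when HR arrays were set beside parental ones of their line, and 0.915 to 0.948 when lines differed. Of 8 measured genes that respond to low oxygen, 8 rose in RPMI8226-HR, 7 in KMS-11-HR, 8 in U266-HR and 7 in IM-9-HR; EGLN3 did not pass in KMS-11 and ANKRD37 fell in IM-9. The mean level of the B cell markers was 9.06 in IM-9-HR and 9.49 in IM-9 parental cells, against 5.63 to 6.95 in the groups of the other lines. Of the 5 B cell markers tested, 3 fell in IM-9-HR, where CD22 fell by 1.3, CD79A by 0.59 and CIITA by 0.35; MS4A1 rose in RPMI8226-HR by 0.69, CD79A fell in U266-HR by 0.72 and 0 moved in KMS-11-HR. Of the 7 plasma cell markers, 3 rose and 1 fell in RPMI8226-HR, led by CD38 at 1.52, 2 rose and 1 fell in IM-9-HR, 1 rose and 1 fell in U266-HR, where SLAMF7 fell by 1.39, and 1 fell in KMS-11-HR. SLAMF7, among the 3 higher in RPMI8226-HR, was below the brightness limit in every array of RPMI8226. The mean level of the plasma cell markers was 8.99 in RPMI8226-HR against 8.71 in its parental cells. It was 8.76 against 8.77 in KMS-11, 9.59 against 9.82 in U266 and 9.27 against 9.22 in IM-9. The part of these markers in the results below was not tested. Of 7 measured myeloid markers, 0 passed the brightness limit, with group means between 4.79 and 5.07.

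Within lines the 35 genes moved in both directions. In IM-9-HR 14 genes rose and 3 fell, where 14.4% of all genes tested rose and 21.3% fell. In RPMI8226-HR 6 rose and 11 fell, against 10.7% and 15.3% of all genes. KMS-11-HR had 6 higher and 0 lower genes, against 2.44% and 5.83%, and U266-HR had 5 higher and 3 lower, against 9.68% and 8.42%. In every IM-9 array LAPTM4B and MAP1LC3B, called higher, and CTSL, called lower, were below the brightness limit. MITF, called lower in U266-HR, was below it in every U266 array. As shares of the 35 genes, the higher calls came to 40.0% in IM-9, 17.1% in RPMI8226, 17.1% in KMS-11 and 14.3% in U266, and the lower calls to 8.57%, 31.4%, 0% and 8.57%. The median difference of the 35 genes was 0.06 in IM-9, 0.01 in U266, 0.04 in KMS-11 and −0.06 in RPMI8226, where all genes had medians of −0.06, −0.01, −0.02 and −0.01. In either direction the calls made 48.6% of the 35 genes in IM-9 and in RPMI8226, against 35.7% and 26.0% of all genes, 22.9% in U266, against 18.1%, and 17.1% in KMS-11, against 8.27%. The HR arrays did not overlap with the parental arrays for 25 of the 35 genes in IM-9, 31 in U266, 21 in KMS-11 and 22 in RPMI8226, against 65.1%, 62.0%, 59.1% and 57.7% of all genes. Calls are adjusted p-values under 0.05 in limma over all 12639 genes, and differences are HR minus parental log2 levels ± SE. In bulk RNA a change in the share of cells and a change in RNA per cell cannot be told apart.

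The counts depended on single arrays, which were left out 1 at a time here and in what follows. Under each setting named in this paragraph, calls over all genes in the same line and direction moved the same way. The sizes of these moves were not compared, so whether the lysosome and autophagy genes are less stable than other genes was not tested. Without parental array 2 of RPMI8226, 5 genes were lower in that line, and without its HR array 1, 6. Higher calls in RPMI8226 numbered 3 without either KMS-11 parental array or any of the 4 U266 arrays. Higher calls in KMS-11 numbered 3 without its parental array 2, HR array 1 or HR array 2, and its lower calls 1 without either IM-9 parental array. Lower calls in U266 numbered 1 without any array of that line, and higher calls in IM-9 numbered 7 without its HR array 2.

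**Figure D1:**
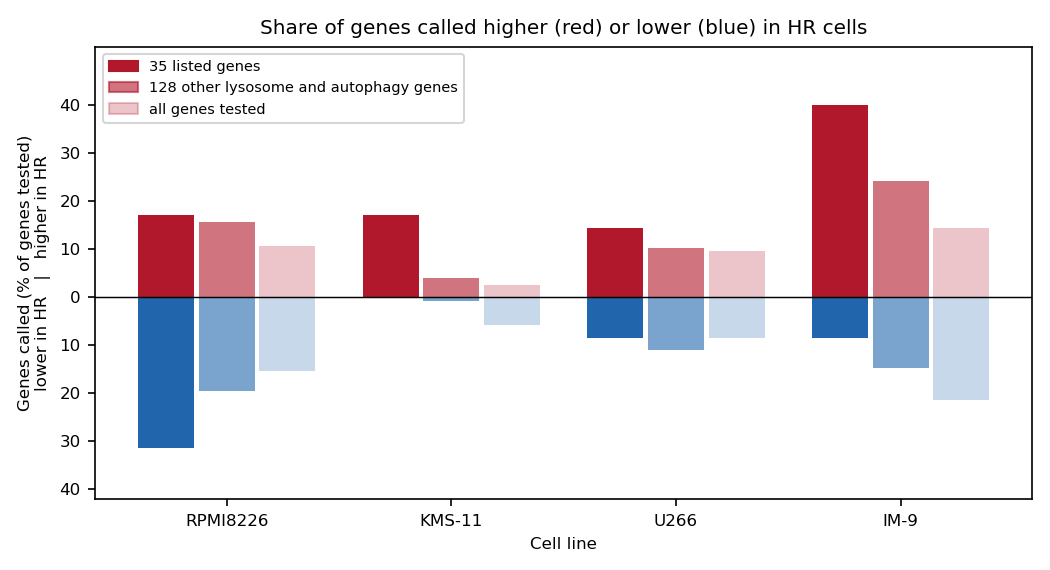
Share of genes higher and lower in HR cells in each line (percent, y axis), for the 35 lysosome and autophagy genes, 128 other genes of these pathways and all 12639 genes tested. The 35 genes have 14 higher and 3 lower in IM-9-HR, and 6 higher and 11 lower in RPMI8226-HR. The IM-9-HR counts include LAPTM4B, MAP1LC3B and CTSL, which were below the brightness limit in every IM-9 array.

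**Figure D2:**
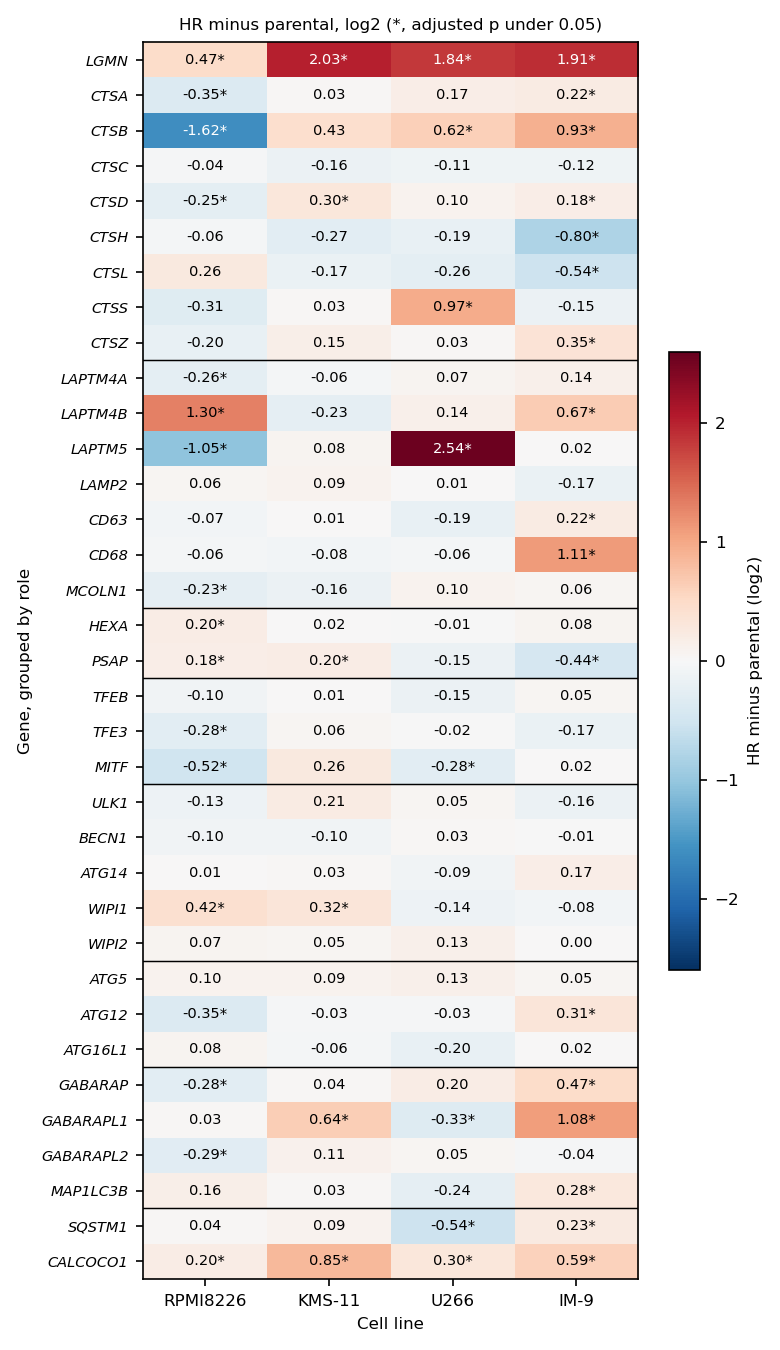
HR minus parental log2 difference of each of the 35 genes (rows, grouped by role) in the 4 lines (columns), coloured by size and direction, with an asterisk on the 48 values with an adjusted p under 0.05. LGMN and CALCOCO1 carry an asterisk in 4 of 4 lines, while LAPTM5 and CTSB have opposite colours in RPMI8226 and U266.

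Of the 140 values, 1 for each gene in each line, 48 passed, 31 higher and 17 lower. Most were small: 28 lay under 0.5 log2 units in size and 9 reached at least 1. Of the 35 genes, 2 rose in all 4 lines, LGMN and CALCOCO1, which is 5.71%, where 0.348% of all genes did. The list was chosen with earlier results of these data known, so this share is a description. The CALCOCO1 call in RPMI8226 was lost in 15 of 24 alternative settings. No further gene rose in 3 lines, so the same 2 rose in at least 3 (1.18% of all genes). In 3 or more lines 0 genes fell, against 1.51% of all genes, and 0 in all 4, against 0.0791%. Opposite calls in a pair of lines were made for 9 genes (25.7%, against 10.8% of all genes). No line gave a call for 9 genes (25.7%, against 42.0% of all genes): the protease CTSC, LAMP2, TFEB, ULK1, BECN1, ATG14, WIPI2, ATG5 and ATG16L1.

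Among the 9 proteases, 5 rose and 2 fell in IM-9-HR, 3 rose and 0 fell in U266-HR, 2 rose and 0 fell in KMS-11-HR, and 1 rose and 3 fell in RPMI8226-HR. Of all genes, 14.4% rose and 21.3% fell in IM-9-HR, 9.68% and 8.42% in U266-HR, 2.44% and 5.83% in KMS-11-HR, and 10.7% and 15.3% in RPMI8226-HR, which also stand beside the counts of the other roles. CTSL, 1 of the 2 lower in IM-9-HR, was below the brightness limit in every IM-9 array. LGMN encodes legumain, an endopeptidase that cuts after asparagine and that matures some cathepsins. In RPMI8226 LGMN read 11.70 and 11.65 in HR cells against 11.15 and 11.27 in parental cells, and in KMS-11 10.79 and 10.83 in HR cells against 8.71 and 8.84 in parental cells. LGMN read 10.98 and 10.96 in HR cells against 9.12 and 9.14 in parental cells of U266, and 10.05 and 10.03 in HR cells against 8.19 and 8.08 in parental cells of IM-9. In every line both HR arrays stood above both parental arrays. HR minus parental was 0.47 ± 0.07 in RPMI8226 (adjusted p = 0.000215), 2.03 ± 0.07 in KMS-11 (adjusted p = 2.05e-09), 1.84 ± 0.07 in U266 (adjusted p = 1.02e-09) and 1.91 ± 0.07 in IM-9 (adjusted p = 9.51e-10). These differences are 1.38-fold in RPMI8226, 4.08-fold in KMS-11, 3.57-fold in U266 and 3.76-fold in IM-9. RPMI8226 parental cells already had the highest level of the parental lines, and the effect there differed from the mean of the other 3 lines by −1.46 (adjusted p = 3.89e-08).

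**Figure D3:**
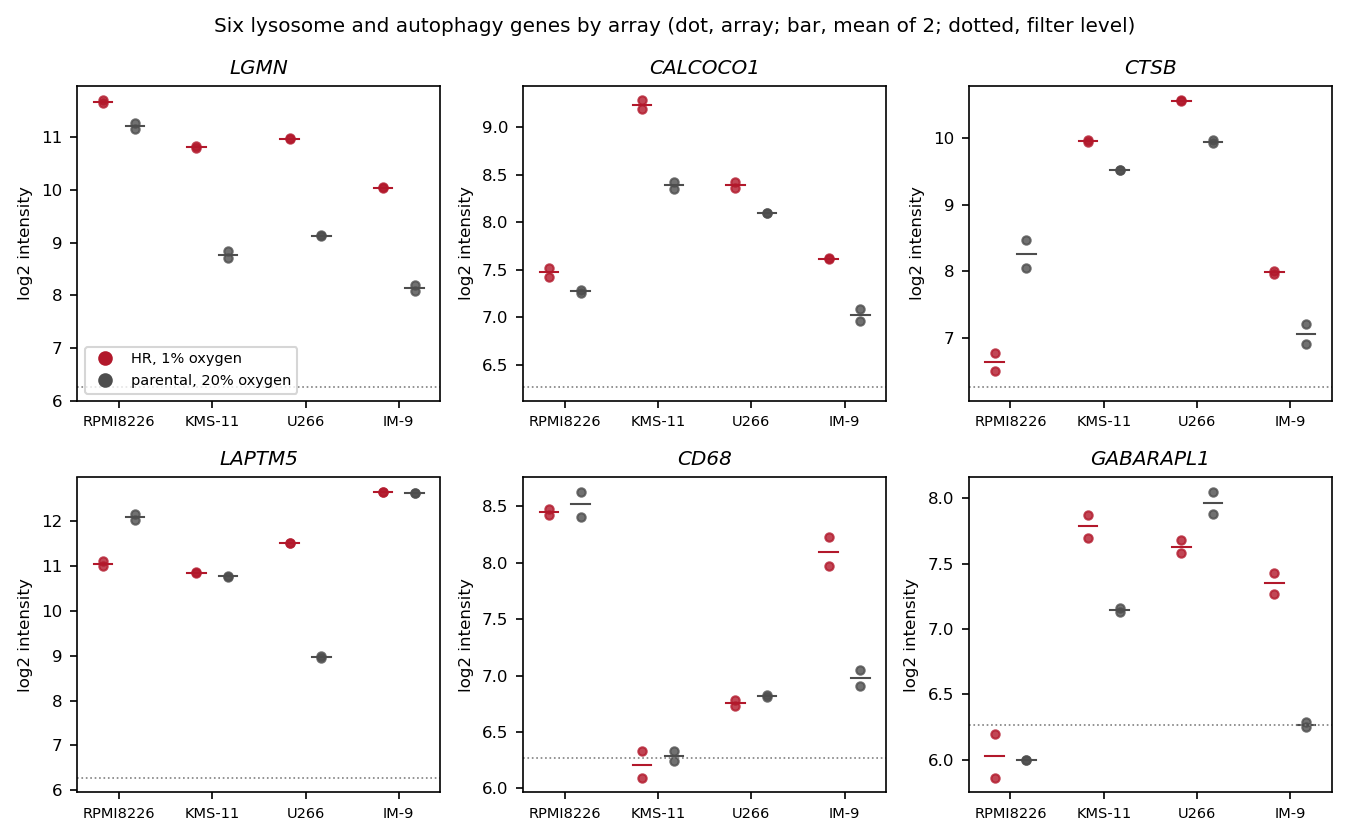
Log2 level of LGMN, CALCOCO1, CTSB, LAPTM5, CD68 and GABARAPL1 in each of the 16 arrays (points), with HR arrays left of parental arrays within a line and a bar at the mean of each group. LGMN is higher in all 8 HR arrays than in the parental arrays of the same line, whereas LAPTM5 is lower in HR arrays of RPMI8226 and higher in those of U266.

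CTSB encodes cathepsin B, a cysteine protease. In RPMI8226 CTSB had 6.78 and 6.50 in HR cells against 8.47 and 8.05 in parental cells, and in KMS-11 9.98 and 9.95 in HR cells against 9.53 and 9.52 in parental cells. CTSB had 10.57 and 10.56 in HR cells against 9.93 and 9.97 in parental cells of U266, and 7.96 and 8.01 in HR cells against 6.91 and 7.21 in parental cells of IM-9. Its HR arrays were below the parental arrays in RPMI8226 and above them in the other 3 lines. The differences came to −1.62 ± 0.13 in RPMI8226 (adjusted p = 1.42e-06), 0.43 ± 0.13 in KMS-11 (adjusted p = 0.0559), 0.62 ± 0.13 in U266 (adjusted p = 0.00428) and 0.93 ± 0.13 in IM-9 (adjusted p = 0.000119). The RPMI8226 fall is 3.08-fold, and that effect differed from the mean of the other 3 lines by −2.28 (adjusted p = 2.71e-07).

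CTSA encodes cathepsin A, a carboxypeptidase that also protects other lysosomal enzymes. In RPMI8226 CTSA stood at 10.53 and 10.40 in HR cells against 10.78 and 10.85 in parental cells, and in KMS-11 10.61 and 10.61 in HR cells against 10.62 and 10.55 in parental cells. CTSA stood at 11.57 and 11.61 in HR cells against 11.44 and 11.40 in parental cells of U266, and 10.03 and 10.05 in HR cells against 9.77 and 9.87 in parental cells of IM-9. HR and parental arrays overlapped in KMS-11 and were apart in the other lines. Its differences were −0.35 ± 0.06 in RPMI8226 (adjusted p = 0.00139), 0.03 ± 0.06 in KMS-11 (adjusted p = 0.83), 0.17 ± 0.06 in U266 (adjusted p = 0.0941) and 0.22 ± 0.06 in IM-9 (adjusted p = 0.0178). CTSD encodes cathepsin D, an aspartic protease. In RPMI8226 CTSD measured 9.92 and 9.97 in HR cells against 10.18 and 10.21 in parental cells, and in KMS-11 10.27 and 10.30 in HR cells against 10.01 and 9.96 in parental cells. CTSD measured 10.97 and 10.93 in HR cells against 10.90 and 10.80 in parental cells of U266, and 9.64 and 9.63 in HR cells against 9.39 and 9.53 in parental cells of IM-9. The HR arrays were lower in RPMI8226 and higher in the 3 other lines, with no overlap in any line. The log2 differences were −0.25 ± 0.06 in RPMI8226 (adjusted p = 0.0119), 0.30 ± 0.06 in KMS-11 (adjusted p = 0.0118), 0.10 ± 0.06 in U266 (adjusted p = 0.34) and 0.18 ± 0.06 in IM-9 (adjusted p = 0.045). Several of these calls lost significance when an array was left out: the CTSD fall in RPMI8226 was −0.23 without parental array 2 and −0.22 without HR array 1. The CTSD rise in KMS-11 was between 0.27 and 0.32 with any of its arrays out, none of which passed. In IM-9 the CTSA rise was 0.17 without parental array 1, 0.23 without HR array 1 and 0.21 without HR array 2. The CTSD rise in IM-9 was 0.11 without parental array 1 and 0.18 without either HR array, and it was also lost without any KMS-11 array or either U266-HR array.

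CTSH, an aminopeptidase, fell in IM-9-HR by 0.80 ± 0.08 (adjusted p = 8.51e-06) and gave no call elsewhere. Its arrays ranged from 7.13 to 11.71, with the highest level in IM-9 parental cells. CTSS encodes cathepsin S, which trims the invariant chain of MHC class II in antigen-presenting cells. It rose by 0.97 ± 0.12 in U266-HR (adjusted p = 0.000103), to 6.52 and 6.40 against 5.63 and 5.35 in parental cells, which are below the brightness limit. CTSZ, a carboxypeptidase, rose by 0.35 ± 0.13 in IM-9-HR (adjusted p = 0.0422). The cysteine protease CTSL fell by 0.54 ± 0.19 in IM-9-HR (adjusted p = 0.0385), where its signal of 4.56 to 5.53 was below the brightness limit. CTSC, which activates serine proteases of granules, had differences of −0.16 to −0.04. Without parental array 1 of IM-9 the CTSL value was −0.20 and without parental array 2 it was −0.88, and it failed the test at −0.62 and −0.46 without HR array 1 or 2. That call was also lost without either RPMI8226-HR array. The CTSZ value was 0.25 without parental array 2 or HR array 2 of IM-9, neither of which passed, and the call was lost without either RPMI8226-HR array or any U266 array as well.

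Of the genes lower in RPMI8226-HR, 10 had a promoter in the RefSeq table (GRCh38.p14), and 3 of these genes held the element CACGTG within 250 bases before to 50 bases after the start site, read on both strands. Of 17 other genes of the set with a promoter in the table, 2 held it. A gene can have several promoters there: 5 of 42 promoters of the set (11.9%) held CACGTG, and 7.3% of all 35116 promoters did. TCACGTG, its extended form, was in 4 of 42 (9.5%) against 3.7%, and the shorter ACGTG, which CACGTG contains, in 14 of 42 (33.3%) against 21.4%. The 3 promoters are shown, chosen after the values were seen, because they are those of genes lower in RPMI8226-HR that hold CACGTG, the element TFEB binds. LGMN and CALCOCO1 are named only. Capitals mark CACGTG with a flanking T before it or A after it, where present. The CTSA window lies at chr20:45891085-45891384 on the plus strand, with CACGTG starting 42 and 25 bases before the start site. The CTSD window lies at chr11:1763878-1764177 on the minus strand, with 1 element 47 bases before it. MCOLN1, which encodes a calcium channel of the lysosome membrane, has its window at chr19:7522374-7522673 on the plus strand, with elements 41 and 14 bases before it.
CTSA: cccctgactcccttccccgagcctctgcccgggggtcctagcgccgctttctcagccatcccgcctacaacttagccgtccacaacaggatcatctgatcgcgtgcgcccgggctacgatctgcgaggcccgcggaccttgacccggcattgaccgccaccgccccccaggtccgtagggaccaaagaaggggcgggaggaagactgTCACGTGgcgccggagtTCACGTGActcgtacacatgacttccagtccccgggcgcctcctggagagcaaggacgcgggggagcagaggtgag
CTSD: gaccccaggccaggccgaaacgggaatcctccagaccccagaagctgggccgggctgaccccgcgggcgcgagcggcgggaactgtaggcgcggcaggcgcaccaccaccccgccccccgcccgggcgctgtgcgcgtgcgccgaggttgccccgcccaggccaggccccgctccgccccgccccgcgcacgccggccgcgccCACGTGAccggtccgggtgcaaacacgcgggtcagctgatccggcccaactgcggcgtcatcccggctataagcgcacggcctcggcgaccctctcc
MCOLN1: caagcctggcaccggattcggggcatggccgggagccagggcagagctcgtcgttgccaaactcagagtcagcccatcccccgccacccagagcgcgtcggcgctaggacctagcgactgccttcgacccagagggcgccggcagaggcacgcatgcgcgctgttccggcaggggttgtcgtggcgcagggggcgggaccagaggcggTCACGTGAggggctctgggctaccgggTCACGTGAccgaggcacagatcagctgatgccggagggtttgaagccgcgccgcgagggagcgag
The letters are a description of these windows. In RPMI8226-HR the differences were −0.35 ± 0.06 for CTSA, −0.25 ± 0.06 for CTSD and −0.23 ± 0.07 for MCOLN1. CTSA rose by 0.22 ± 0.06 in IM-9-HR, and CTSD by 0.30 ± 0.06 in KMS-11-HR and 0.18 ± 0.06 in IM-9-HR. The 2 other genes with CACGTG were CD63, called higher in IM-9-HR, and ATG14, which gave no call. A link between the element and these changes was not tested.

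Of the 7 membrane proteins, 1 rose and 3 fell in RPMI8226-HR, 0 moved in KMS-11-HR, 1 rose in U266-HR, and 3 rose and 0 fell in IM-9-HR, 1 of the 3 being LAPTM4B, below the brightness limit in every IM-9 array. LAPTM5 encodes a lysosomal membrane protein of blood cells. In RPMI8226 LAPTM5 had 11.11 and 11 in HR cells against 12.16 and 12.04 in parental cells, and in KMS-11 10.84 and 10.87 in HR cells against 10.75 and 10.79 in parental cells. LAPTM5 had 11.52 and 11.51 in HR cells against 8.99 and 8.95 in parental cells of U266, and 12.65 and 12.66 in HR cells against 12.64 and 12.64 in parental cells of IM-9. The HR arrays lay below the parental arrays in RPMI8226 and far above them in U266. HR minus parental came to −1.05 ± 0.06 in RPMI8226 (adjusted p = 7.75e-08), 0.08 ± 0.06 in KMS-11 (adjusted p = 0.461), 2.54 ± 0.06 in U266 (adjusted p = 2.69e-11) and 0.02 ± 0.06 in IM-9 (adjusted p = 0.858). The U266 rise is 5.84-fold and the RPMI8226 fall 2.07-fold. The U266 effect exceeded the mean of the other 3 lines by 2.86 (adjusted p = 1.13e-10).

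CD68 encodes a heavily glycosylated protein best known from macrophage lysosomes. In RPMI8226 CD68 read 8.42 and 8.48 in HR cells against 8.63 and 8.41 in parental cells, and in KMS-11 6.09 and 6.33 in HR cells against 6.33 and 6.24 in parental cells. CD68 read 6.73 and 6.78 in HR cells against 6.83 and 6.81 in parental cells of U266, and 8.23 and 7.97 in HR cells against 6.91 and 7.05 in parental cells of IM-9. HR and parental arrays were apart with HR higher in IM-9; in U266 they were apart with HR lower, and in RPMI8226 and KMS-11 they overlapped. Its log2 differences came to −0.06 ± 0.10 in RPMI8226 (adjusted p = 0.713), −0.08 ± 0.10 in KMS-11 (adjusted p = 0.71), −0.06 ± 0.10 in U266 (adjusted p = 0.745) and 1.11 ± 0.10 in IM-9 (adjusted p = 4.76e-06). In KMS-11 its signal was near the brightness limit. The 7 measured myeloid markers did not pass that limit, with means of 4.82 in IM-9-HR and 4.90 in IM-9 parental cells.

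LAPTM4B encodes a relative of LAPTM5. In RPMI8226 LAPTM4B measured 8.05 and 8.24 in HR cells against 6.92 and 6.78 in parental cells, and in KMS-11 10.06 and 10.00 in HR cells against 10.22 and 10.31 in parental cells. LAPTM4B measured 10.03 and 10.04 in HR cells against 9.84 and 9.94 in parental cells of U266, and 5.46 and 4.98 in HR cells against 4.50 and 4.59 in parental cells of IM-9. RPMI8226 and IM-9 had higher HR arrays, KMS-11 lower ones and U266 higher ones, with no overlap in any line. The differences were 1.3 ± 0.12 in RPMI8226 (adjusted p = 7.24e-06), −0.23 ± 0.12 in KMS-11 (adjusted p = 0.284), 0.14 ± 0.12 in U266 (adjusted p = 0.496) and 0.67 ± 0.12 in IM-9 (adjusted p = 0.00102). In IM-9 its signal of 4.50 to 5.46 was below the brightness limit, and the value was 0.43 without HR array 1.

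LAPTM4A, the third of that family, fell by 0.26 ± 0.07 in RPMI8226-HR (adjusted p = 0.00947) and gave no call in the other lines, where its differences were −0.06 to 0.14. MCOLN1 fell by 0.23 ± 0.07 in RPMI8226-HR (adjusted p = 0.0312). The tetraspanin CD63, found in late endosomes and exosomes, rose by 0.22 ± 0.06 in IM-9-HR (adjusted p = 0.0121). LAMP2, an abundant glycoprotein of the lysosome membrane, had differences of −0.17 to 0.09. Each of these 3 calls was lost with some arrays left out, while the sign of the difference stayed. The LAPTM4A value was −0.24 without parental array 2 or HR array 2 of RPMI8226, and the MCOLN1 value was −0.22, −0.25 and −0.15 without parental array 1, parental array 2 and HR array 1, none of which passed. The CD63 value was 0.15 and 0.19 without parental array 2 and HR array 2 of IM-9, which did not pass.

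PSAP encodes the precursor of the saposins, cofactors of sphingolipid breakdown. In RPMI8226 PSAP stood at 10.50 and 10.42 in HR cells against 10.28 and 10.29 in parental cells, and in KMS-11 10.07 and 10.06 in HR cells against 9.85 and 9.87 in parental cells. PSAP stood at 11.28 and 11.22 in HR cells against 11.41 and 11.39 in parental cells of U266, and 9.75 and 9.81 in HR cells against 10.25 and 10.20 in parental cells of IM-9. HR arrays were above parental arrays in RPMI8226 and KMS-11 and below them in U266 and IM-9, with no overlap. Its differences were 0.18 ± 0.06 in RPMI8226 (adjusted p = 0.0382), 0.20 ± 0.06 in KMS-11 (adjusted p = 0.0432), −0.15 ± 0.06 in U266 (adjusted p = 0.0946) and −0.44 ± 0.06 in IM-9 (adjusted p = 6.81e-05). HEXA encodes the alpha subunit of beta-hexosaminidase. In RPMI8226 HEXA measured 8.39 and 8.42 in HR cells against 8.15 and 8.27 in parental cells, and in KMS-11 8.75 and 8.66 in HR cells against 8.68 and 8.68 in parental cells. HEXA measured 9.59 and 9.56 in HR cells against 9.63 and 9.54 in parental cells of U266, and 8.02 and 8.05 in HR cells against 7.89 and 8.02 in parental cells of IM-9. The HR arrays were above the parental arrays in RPMI8226 and overlapped with them in the other lines. HR minus parental was 0.20 ± 0.07 in RPMI8226 (adjusted p = 0.048), 0.02 ± 0.07 in KMS-11 (adjusted p = 0.875), −0.01 ± 0.07 in U266 (adjusted p = 0.96) and 0.08 ± 0.07 in IM-9 (adjusted p = 0.373). The PSAP call in RPMI8226 was lost without parental array 1, parental array 2 or HR array 1 of that line, at 0.17, 0.18 and 0.14, and without any of the 8 arrays of KMS-11 and U266. Its call in KMS-11 was lost without any array of KMS-11 (0.19 to 0.22) or of U266 and without either IM-9-HR array. The HEXA call was lost without parental array 1 (0.14), HR array 1 (0.21) or HR array 2 (0.18) of RPMI8226, without any array of KMS-11 or U266, and without either IM-9-HR array.

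Of the 3 transcription factors, TFEB gave no call, with differences of −0.15 to 0.05. TFE3 fell by 0.28 ± 0.08 in RPMI8226-HR (adjusted p = 0.0232), with −0.17 to 0.06 in the other lines, and the fall was 0.20 without parental array 2 and 0.17 without HR array 1 of RPMI8226, neither of which passed. MITF gave calls in 2 lines. In RPMI8226 MITF read 7.24 and 7.24 in HR cells against 7.68 and 7.83 in parental cells, and in KMS-11 7.54 and 7.37 in HR cells against 7.11 and 7.29 in parental cells. MITF read 5.43 and 5.34 in HR cells against 5.71 and 5.62 in parental cells of U266, and 6.25 and 6.19 in HR cells against 6.23 and 6.16 in parental cells of IM-9. HR arrays were lower than parental arrays in RPMI8226 and U266 and higher in KMS-11, and in IM-9 they overlapped. HR minus parental stood at −0.52 ± 0.08 in RPMI8226 (adjusted p = 0.000487), 0.26 ± 0.08 in KMS-11 (adjusted p = 0.0756), −0.28 ± 0.08 in U266 (adjusted p = 0.0327) and 0.02 ± 0.08 in IM-9 (adjusted p = 0.864). In U266 and IM-9 the signal was below the brightness limit, and the U266 value was −0.33 to −0.23 without any 1 of its arrays, with no call.

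Of 5 genes of the early steps of autophagy, 1 rose in RPMI8226-HR and 1 in KMS-11-HR, and 0 gave a call in U266 or IM-9. ULK1, the initiating kinase, and BECN1 and ATG14 of the lipid kinase complex gave no call, and nor did WIPI2, which recognises the lipid made by that complex. Their differences lay between −0.16 and 0.21 over the 4 lines. WIPI1, a relative of WIPI2, did move. In RPMI8226 WIPI1 had 7.73 and 7.63 in HR cells against 7.31 and 7.22 in parental cells, and in KMS-11 9.03 and 9.01 in HR cells against 8.73 and 8.66 in parental cells. WIPI1 had 10.08 and 10.09 in HR cells against 10.24 and 10.20 in parental cells of U266, and 8.60 and 8.66 in HR cells against 8.72 and 8.70 in parental cells of IM-9. HR arrays were higher in RPMI8226 and KMS-11 and lower in U266 and IM-9, with no overlap. The differences were 0.42 ± 0.06 in RPMI8226 (adjusted p = 0.000273), 0.32 ± 0.06 in KMS-11 (adjusted p = 0.00655), −0.14 ± 0.06 in U266 (adjusted p = 0.151) and −0.08 ± 0.06 in IM-9 (adjusted p = 0.313). Without parental array 2, HR array 1 or HR array 2 of KMS-11 its call in that line was lost, at 0.29, 0.32 and 0.33.

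Of the conjugation genes, ATG5 (0.05 to 0.13) and ATG16L1 (−0.20 to 0.08) gave no call in any line. ATG12, whose product is joined to ATG5, moved in opposite directions. In RPMI8226 ATG12 stood at 6.94 and 7.21 in HR cells against 7.37 and 7.48 in parental cells, and in KMS-11 7.11 and 7.22 in HR cells against 7.19 and 7.21 in parental cells. ATG12 stood at 7.60 and 7.54 in HR cells against 7.59 and 7.60 in parental cells of U266, and 7.29 and 7.40 in HR cells against 7.03 and 7.04 in parental cells of IM-9. HR arrays were lower in RPMI8226 and higher in IM-9, and in the other lines they overlapped with the parental arrays. HR minus parental came to −0.35 ± 0.08 in RPMI8226 (adjusted p = 0.00781), −0.03 ± 0.08 in KMS-11 (adjusted p = 0.855), −0.03 ± 0.08 in U266 (adjusted p = 0.856) and 0.31 ± 0.08 in IM-9 (adjusted p = 0.0109). The RPMI8226 value was −0.29 without parental array 2 and −0.22 without HR array 1, and the IM-9 value was 0.26 without HR array 2, none of which passed.

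The 4 ATG8 family genes, whose products coat the autophagy membrane, rose in 3 of 4 cases in IM-9-HR and fell in 2 of 4 in RPMI8226-HR, where 14.4% of all genes rose in IM-9-HR and 15.3% fell in RPMI8226-HR. MAP1LC3B, 1 of the 3, was below the brightness limit in every IM-9 array. KMS-11-HR had 1 higher and U266-HR 1 lower. Near-identical copies, such as GABARAPL3 for GABARAPL1, may share probes, so these values may hold signal of the copies. In RPMI8226 GABARAPL1 read 5.86 and 6.20 in HR cells against 6 and 6 in parental cells, and in KMS-11 7.70 and 7.87 in HR cells against 7.16 and 7.13 in parental cells. GABARAPL1 read 7.68 and 7.58 in HR cells against 7.88 and 8.05 in parental cells of U266, and 7.43 and 7.27 in HR cells against 6.29 and 6.25 in parental cells of IM-9. HR arrays were higher in KMS-11 and IM-9, lower in U266 and overlapping with parental arrays in RPMI8226, where the signal was below the brightness limit. HR minus parental was 0.03 ± 0.10 in RPMI8226 (adjusted p = 0.867), 0.64 ± 0.10 in KMS-11 (adjusted p = 0.00278), −0.33 ± 0.10 in U266 (adjusted p = 0.0421) and 1.08 ± 0.10 in IM-9 (adjusted p = 6.15e-06). The IM-9 rise is 2.11-fold. The U266 call was lost without any array of that line, at −0.42 to −0.24, and without any parental array of RPMI8226 or KMS-11.

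GABARAP is the founding member of the GABARAP branch. In RPMI8226 GABARAP measured 10.66 and 10.76 in HR cells against 10.90 and 11.09 in parental cells, and in KMS-11 8.96 and 8.92 in HR cells against 8.89 and 8.92 in parental cells. GABARAP measured 10.19 and 10.23 in HR cells against 10.05 and 9.96 in parental cells of U266, and 10.15 and 10.28 in HR cells against 9.68 and 9.81 in parental cells of IM-9. HR arrays were lower in RPMI8226 and higher in U266 and IM-9, and in KMS-11 they were nearly level with the parental arrays. Its log2 differences came to −0.28 ± 0.08 in RPMI8226 (adjusted p = 0.0172), 0.04 ± 0.08 in KMS-11 (adjusted p = 0.8), 0.20 ± 0.08 in U266 (adjusted p = 0.0918) and 0.47 ± 0.08 in IM-9 (adjusted p = 0.000443). The RPMI8226 value was −0.19 without parental array 2 and −0.23 without HR array 1, which did not pass.

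GABARAPL2 is a close relative. In RPMI8226 GABARAPL2 stood at 10.13 and 10.20 in HR cells against 10.49 and 10.42 in parental cells, and in KMS-11 9.41 and 9.34 in HR cells against 9.26 and 9.26 in parental cells. GABARAPL2 stood at 9.62 and 9.56 in HR cells against 9.55 and 9.52 in parental cells of U266, and 9.12 and 9.14 in HR cells against 9.15 and 9.19 in parental cells of IM-9. HR arrays were lower in RPMI8226 and IM-9 and higher in KMS-11 and U266, with no overlap. HR minus parental came to −0.29 ± 0.06 in RPMI8226 (adjusted p = 0.00243), 0.11 ± 0.06 in KMS-11 (adjusted p = 0.265), 0.05 ± 0.06 in U266 (adjusted p = 0.597) and −0.04 ± 0.06 in IM-9 (adjusted p = 0.599). MAP1LC3B, which encodes the most used marker of autophagosomes, has a further probe set shared with another symbol, which was not used. In the probe set that was read, MAP1LC3B was above the brightness limit in 3 arrays, all of U266. It rose by 0.28 ± 0.10 in IM-9-HR (adjusted p = 0.0428) at a signal of 5.46 to 5.81. That call was lost without parental array 1 (0.20), HR array 1 (0.27) or HR array 2 (0.28) of IM-9, and without either HR array of RPMI8226 or KMS-11 or either U266 parental array.

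Of the 2 cargo receptors, CALCOCO1 rose in all 4 lines. It encodes an autophagy receptor described for the endoplasmic reticulum. In RPMI8226 CALCOCO1 read 7.42 and 7.52 in HR cells against 7.25 and 7.29 in parental cells, and in KMS-11 9.19 and 9.28 in HR cells against 8.42 and 8.35 in parental cells. CALCOCO1 read 8.42 and 8.36 in HR cells against 8.10 and 8.09 in parental cells of U266, and 7.62 and 7.61 in HR cells against 6.96 and 7.09 in parental cells of IM-9. Both HR arrays stood above both parental arrays in every line. HR minus parental came to 0.20 ± 0.07 in RPMI8226 (adjusted p = 0.0395), 0.85 ± 0.07 in KMS-11 (adjusted p = 8.64e-06), 0.30 ± 0.07 in U266 (adjusted p = 0.00635) and 0.59 ± 0.07 in IM-9 (adjusted p = 2.22e-05). The largest rise, in KMS-11, is 1.81-fold. In RPMI8226 the call was lost without parental array 1 (0.19), parental array 2 (0.22) or HR array 2 (0.15), and without either KMS-11 parental array, any U266 array or either IM-9-HR array. In U266 it was lost without HR array 1 (0.27).

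SQSTM1 encodes p62, a receptor for ubiquitin-tagged cargo that autophagy itself degrades. In RPMI8226 SQSTM1 had 9.60 and 9.44 in HR cells against 9.48 and 9.49 in parental cells, and in KMS-11 10.43 and 10.50 in HR cells against 10.36 and 10.39 in parental cells. SQSTM1 had 10.54 and 10.51 in HR cells against 11.09 and 11.04 in parental cells of U266, and 9.49 and 9.48 in HR cells against 9.17 and 9.34 in parental cells of IM-9. HR arrays were lower in U266, higher in KMS-11 and IM-9, and overlapping with parental arrays in RPMI8226. HR minus parental was 0.04 ± 0.07 in RPMI8226 (adjusted p = 0.769), 0.09 ± 0.07 in KMS-11 (adjusted p = 0.498), −0.54 ± 0.07 in U266 (adjusted p = 0.000148) and 0.23 ± 0.07 in IM-9 (adjusted p = 0.0245). In IM-9 the value was 0.15, 0.22 and 0.23 without parental array 1, HR array 1 and HR array 2, with no call.

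Whether the HR effect differed between lines was tested directly with an F test over the 4 effects. It passed for 22 of 35 genes (62.9%), where 45.4% of all genes tested did. The smallest adjusted p-values belonged to LAPTM5 (2.67e-10), LGMN (1.79e-07) and CTSB (1.06e-06). Compared with the average effect of the other 3 lines, the effect in RPMI8226 differed for 18 genes (51.4%, against 26.8% of all genes). In KMS-11 it differed for 8 (22.9%, against 9.52%), in U266 for 12 (34.3%, against 24.7%) and in IM-9 for 14 (40.0%, against 30.8%). MAP1LC3B, among the 22 genes and among the 12 of U266, entered the test through U266 arrays alone. Without parental array 1, parental array 2 or HR array 1 of U266, 7 genes differed in that line.

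With the line as the unit, 4 HR means against 4 parental means, 0 of the 35 genes and 0 of 12639 genes passed in limma (0%). An unadjusted p under 0.05 was reached by 3 of the 35 genes (8.57%) and 6.27% of all genes: LGMN at 1.56 ± 0.27 (adjusted p = 0.547, higher in 4 of 4 lines), CALCOCO1 at 0.49 ± 0.12 (adjusted p = 0.764, higher in 4 of 4) and CTSH at −0.33 ± 0.13 (adjusted p = 0.764, lower in 4 of 4). With RPMI8226 left out, the line with the smallest LGMN rise, LGMN came to 1.93 ± 0.09 (adjusted p = 0.0253) and was the only 1 of all genes called. It did not pass without U266 (1.47 ± 0.32, adjusted p = 0.674), IM-9 (1.44 ± 0.33, 0.897) or KMS-11 (1.4 ± 0.31, 0.913).

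The parental lines differed for 35 of 35 genes by an F test, where 94.3% of all genes did, so the count for the 35 lies near that of genes in general. MAP1LC3B entered the test through U266 arrays alone, and U266 was its highest parental line, so its F test and rank here are a description. The gap between the highest and lowest parental mean ran from 0.43 to 5.71 log2 units, with a median of 1.60. LAPTM4B had the widest gap, highest in KMS-11 and lowest in IM-9, and ATG14 the narrowest. U266 parental cells had the highest mean for 14 of the 35 genes, RPMI8226 for 9, KMS-11 for 6 and IM-9 for 6. IM-9 parental cells had the lowest for 15 genes, RPMI8226 for 9, KMS-11 for 7 and U266 for 4. LGMN means in HR cells were 11.68 in RPMI8226, 10.97 in U266, 10.81 in KMS-11 and 10.04 in IM-9, where parental means were 11.21, 9.13, 8.78 and 8.13.

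**Figure D4:**
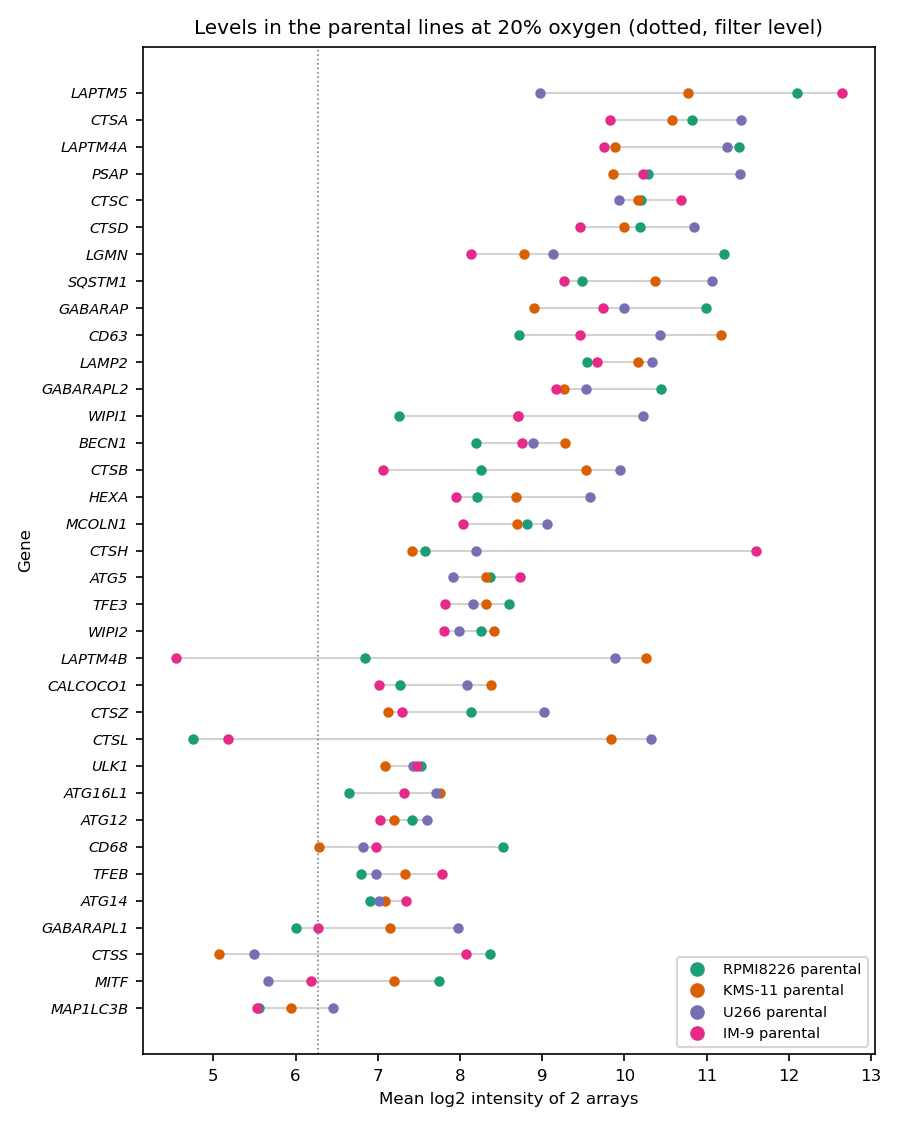
Mean log2 level of each of the 35 genes in parental cells of the 4 lines (2 arrays each). LAPTM4B, CTSL and CTSH spread the widest between lines, and the autophagy factors ULK1 and ATG14 the least.

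Other genes of the lysosome and of autophagy, 150 named from textbook knowledge with earlier results of these data known, gave 139 measured and 128 tested. Of these, 20 rose and 25 fell in RPMI8226-HR, 5 rose and 1 fell in KMS-11-HR, 13 rose and 14 fell in U266-HR, and 31 rose and 19 fell in IM-9-HR. That is 15.6% and 19.5% of them in RPMI8226-HR, where 10.7% of all genes rose and 15.3% fell, and 3.91% and 0.781% in KMS-11-HR, against 2.44% and 5.83%. In U266-HR it is 10.2% and 10.9%, against 9.68% and 8.42%, and in IM-9-HR 24.2% and 14.8%, against 14.4% and 21.3%. The 20 genes higher in RPMI8226-HR include TFEC, which entered the test through the RPMI8226-HR arrays alone. Of 19 tested subunits of the V-ATPase, the pump that acidifies the lysosome, 0 rose and 7 fell in RPMI8226-HR, 0 moved in KMS-11-HR, 1 rose and 0 fell in U266-HR, and 5 rose and 3 fell in IM-9-HR. Of the 128 genes, 0 were called in the same direction in all 4 lines, where 0.348% of all genes rose and 0.0791% fell. In 3 lines GALC, a galactosylceramide hydrolase, PIK3C3, the lipid kinase of the BECN1 complex, and SCARB2, a lysosomal membrane receptor, rose, and the fucosidase gene FUCA1 fell. These are 3 and 1 of the 128 genes, where 1.18% of all genes rose and 1.51% fell in at least 3 lines. FUCA1 rose by 0.52 ± 0.08 in IM-9-HR (adjusted p = 0.00017), and PIK3C3 fell by 0.22 ± 0.06 there (adjusted p = 0.0129). These 4 genes were singled out after their values were seen. These counts also moved with single arrays: in RPMI8226 15 fell without parental array 1 and 16 without HR array 1. In KMS-11, 2, 1 and 0 rose without parental array 2, HR array 1 and HR array 2, and 0 fell without any of these. Also in KMS-11, 3 rose without either U266-HR array and 3 fell without either RPMI8226 parental array. In U266, 8 rose without parental array 2 or either HR array, and 5 to 8 fell without any 1 of its arrays.

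Among these 128 genes, those with the largest called changes in each line follow. In RPMI8226-HR TFEC, a transcription factor related to TFEB, had 8.37 and 8.07 in HR cells against 5.49 and 5.34 in parental cells; it was above the brightness limit in the RPMI8226-HR arrays alone and entered the test through them, so these levels are a description. The acid glucosidase gene GAA rose there by 0.69 ± 0.08 (adjusted p = 4.06e-05), while CST3, the secreted protease inhibitor cystatin C, changed by −1.12 ± 0.11 (adjusted p = 1.05e-05) and the V-ATPase subunit gene ATP6V0E2 by −0.95 ± 0.09 (adjusted p = 4.65e-06). In KMS-11-HR the largest rises were GALC at 0.35 ± 0.08 (adjusted p = 0.0143) and PIK3C3 at 0.34 ± 0.06 (adjusted p = 0.00479), and the 1 fall was FUCA1 at −0.31 ± 0.08 (adjusted p = 0.0239). In U266-HR WDR45B, a relative of the WIPI proteins, rose by 0.83 ± 0.06 (adjusted p = 9.7e-07) and the cathepsin gene CTSV by 0.75 ± 0.14 (adjusted p = 0.00188). There the cholesterol transporter gene NPC1 changed by −0.64 ± 0.07 (adjusted p = 3.77e-05) and RUBCN, an inhibitor of the lipid kinase complex, by −0.55 ± 0.07 (adjusted p = 0.00014). In IM-9-HR GALC rose by 1.27 ± 0.08 (adjusted p = 1.08e-07) and RRAGD, a GTPase that links amino acids to TFEB, by 1.21 ± 0.09 (adjusted p = 4.55e-07). MCOLN2, a relative of MCOLN1, changed by −1.34 ± 0.14 (adjusted p = 1.25e-05) and the acid lipase gene LIPA by −0.93 ± 0.09 (adjusted p = 5.2e-06).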

How the data were processed

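RNA of the 4 lines was measured on arrays, 2 per group and 16 in all. The authors deposited log2 intensities of 33297 probe sets, already summarised and of 1 table; per the submitters' processing notes the software was Affymetrix Expression Console 1.3.0, and how background was corrected and arrays were normalized is not given in the sources used here. A Gene 2.0 ST array is named in the design text, while all 21214 probe sets of the platform table, of the Gene 1.0 ST array, were found in the data by identifier, so its names were used; 19460 probe sets carried 1 symbol, 1754 several, and 12083 were not in that table. Of the 19460, 19429 matched RefSeq by Entrez identifier. For each gene the probe set with the highest mean was kept, and genes above 6.27 in at least 2 arrays were tested (brightness limit).

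Groups followed the labels. In R 4.3.3 with limma 3.58.1 (lmFit, eBayes, 2-sided, Benjamini-Hochberg, threshold 0.05), the 16 arrays were fitted as 8 groups, with contrasts of HR minus parental within a line, an F test of differences between these effects, each effect against the mean of the other 3, and an F test among parental lines. Across lines, the 2 arrays of a group were averaged and the line was a block. The fits were tested on simulated data. Python 3.11.15 searched promoters. The number of arrays limits the precision, and the table used here holds no detection calls. The labels give no batch, so none was tested. Alternatives were another quantile normalization, no filter and a stricter one, the mean of probe sets, array weights, an intensity trend, a replicate block, the arrays of 1 line alone, single arrays across lines, each line left out and each array left out.

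The 35 genes and the other lists were chosen with earlier results of these data known. Values of every array are given for genes called in at least 3 lines, called in opposite directions, or with the largest called change of their role in a line; other genes are given by range, difference and count. Of the other genes of these pathways, the 2 largest called rises and falls of each line are named; those called the same way in 3 lines, and the promoters shown, were chosen after their values were seen.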

Additional observations from a re-analysis of the deposited data

Results flagged for a closer look

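The effect of the HR state differed between the 4 lines for 22 of the 35 genes by the F test over the 4 HR effects in limma, and that difference is what singles them out. The adjusted p-values were LAPTM5 2.67e-10, LGMN 1.79e-07, CTSB 1.06e-06, GABARAPL1 3.55e-05, CD68 5.96e-05, LAPTM4B 9.25e-05, PSAP 9.39e-05, SQSTM1 0.000259, CTSS 0.000293, WIPI1 0.00033 and CALCOCO1 0.000413. They were MITF 0.000739, GABARAP 0.000818, CTSH 0.000857, CTSA 0.000911, CTSD 0.00169, ATG12 0.00424, GABARAPL2 0.006, CD63 0.0104, LAPTM4A 0.0125, MAP1LC3B 0.0349 and MCOLN1 0.037 for the others. The test passed for 45.4% of all genes. MAP1LC3B was above the brightness limit in U266 arrays alone and entered the test through them. LGMN and CALCOCO1 rose in all 4 lines and differ in the size of the rise, while CTSB rose in U266 and IM-9, LAPTM5 rose in U266, and both fell in RPMI8226.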

How the results depend on the processing

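Of 48 called values of single genes, 24 kept their call under every alternative run and 0 changed sign; 8 lost it under 10 or more of at most 24. Counts of the 35 genes moved by over 1.5 times as follows. A second quantile normalization gave 1 lower in KMS-11; no filter gave 3 higher in RPMI8226 and 1 lower in U266; the stricter filter gave 1 lower in KMS-11. Array weights gave 3 higher in RPMI8226, 2 lower in KMS-11 and 7 lower in U266, and the intensity trend 2 lower in KMS-11. Fits on the arrays of 1 line gave 3 higher and 5 lower in RPMI8226, 1 lower in KMS-11 and 8 higher in IM-9. Across lines, single arrays called 3 (1024 genes in all) and leaving out RPMI8226 called 1 (1 gene in all). The fit on single arrays counted the arrays of a group as independent, so its calls are not a result with the line as the unit. Counts of the other 128 genes moved to 8 higher in KMS-11 under quantile normalization; 5 lower in KMS-11 under the stricter filter; 16 lower in RPMI8226, 14 higher and 7 lower in KMS-11 and 22 lower in U266 under array weights; 9 higher and 5 lower in KMS-11 under the intensity trend; and 15 lower in RPMI8226 and 3 higher and 4 lower in KMS-11 on the arrays of 1 line. Calls over all genes moved too. Array weights gave 928 higher and 1381 lower in RPMI8226, against 1354 and 1934 in the main fit. They gave 657 and 1426 in KMS-11, against 308 and 737, and 1663 and 1624 in U266, against 1223 and 1064. In IM-9 they gave 1529 and 2225, against 1814 and 2692. The cause was not tested.

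With 1 array left out, the 35 genes had 7 to 14 higher and 2 to 3 lower in IM-9, 4 to 5 and 1 to 4 in U266, 3 to 7 and 0 to 1 in KMS-11, and 3 to 6 and 5 to 12 in RPMI8226. The other genes had 22 to 36 and 16 to 21, 8 to 14 and 5 to 15, 0 to 6 and 0 to 3, and 14 to 24 and 15 to 26 in that order. The HR effect differed between lines for 20 to 24 of the 35 genes, and from the other 3 lines for 13 to 16 in IM-9, 7 to 13 in U266, 6 to 9 in KMS-11 and 15 to 21 in RPMI8226. Parental lines differed for 34 to 35 genes, and 0 were called across lines. A group left with 1 array was assumed to vary like the others. Calls within lines over all genes also changed when an array was left out. Whether the ranges within lines are wider for these lists than for other genes was not tested.

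Deviations of same-numbered HR and parental arrays correlated at 0.109 in IM-9, −0.048 in U266, 0.071 in KMS-11 and 0.205 in RPMI8226. These values do not settle whether arrays of the same number are pairs, which the labels do not say. With the replicate block, 1 of the 35 genes was lower in U266 and 2 of the other genes were lower in KMS-11. Across lines LGMN and CALCOCO1 were then called (2 of 35, 176 genes in all). That fit across lines took single arrays as units and counted the 2 arrays of a group as independent. Its calls are thus not a result with the line as the unit. With 2 arrays per group, called differences near 0.2 log2 units lie at the limit of what these arrays resolve.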

Other observations

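The spread of LGMN between lines was 1.64 log2 units among HR means and 3.08 among parental means. SQSTM1 had 1.04 among HR means and 1.80 among parental means, and LAPTM5 1.80 and 3.67. CTSB went the other way, with 3.93 among HR means and 2.89 among parental means, as did CALCOCO1 with 1.77 and 1.36. Of the 35 genes, 25 (71.4%) had a narrower range among HR means than among parental means, as did 51.3% of all 12639 genes tested. The median range of the 35 genes was 1.50 among HR means and 1.60 among parental means, against 0.92 and 0.92 for all genes. These shares were not tested.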
